A study of Mus musculus with 6 samples.

Results

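The 10 genes Nkd1, Axin2, Rnf43, Znrf3, Apcdd1, Notum, Wif1, Dkk2, Dkk3 and Sp5 are targets of Wnt signaling that act back on the pathway, most of them as inhibitors. They were taken by gene symbol from the deposited expression table of 36172 genes, in which each of the 10 was listed. All 10 also passed a filter of 4 rpkm or more in 1 library or more, as 10042 genes did (rpkm is read density normalised to gene length and to mapped reads). The RNA came from tumor-derived organoids, three-dimensional epithelial cultures grown from small intestinal tumors of C57BL/6 mice aged 15 to 20 weeks. All mice carried the Apc truncation at codon 716, and per the labels the tumor cells of every group had lost the other Apc allele. The 3 groups differed in Trp53 and are labelled Apc(D716) p53(+/+), Apc(D716) p53(flox/flox) and Apc(D716) p53(M/M), hereafter +/+, flox/flox and R270H/R270H. The flox allele holds a stop cassette and is null. In the R270H/R270H group the same allele had been recombined by villin-CreER after tamoxifen, so that intestinal epithelial cells expressed the missense protein p53 R270H, and effects of the tamoxifen treatment and of the missense protein cannot be told apart from these labels. Organoids were prepared independently from a different mouse for each of the 2 libraries of a group, 6 libraries in all.

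Wnt ligands bind Frizzled and LRP receptors and thereby stop the cytoplasmic destruction complex, which holds Apc, Axin and Gsk3, from marking β-catenin for degradation. β-catenin then enters the nucleus and works with TCF/LEF factors, and among the genes it turns on are inhibitors of the same pathway, a negative feedback that keeps Wnt activity within bounds in the intestinal crypt. When Apc is lost, β-catenin is stable without ligand. The feedback genes are then switched on in the tumor epithelium, although inhibitors that act at the receptor lie upstream of the lesion.

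Trp53 itself followed the labels, with 75.9 and 74.3 rpkm in the +/+ libraries, 1.73 and 2.48 rpkm in flox/flox and 72.8 and 82.7 rpkm in R270H/R270H. No value in the table was below 1 rpkm, so a gene listed at 1 rpkm stood at this floor and ratios against it are lower bounds. The files give no read counts, and no counting interval is given. The flox/flox libraries stood apart from each other, with a median s.d. over genes of 0.247 on the log2 scale, against 0.0463 in +/+ and 0.0621 in R270H/R270H. All 8 epithelial markers were above the floor in every library. Of 11 fibroblast and mesenchymal markers, Vim was the only one above the floor in both +/+ libraries and in flox/flox replicate 1. R270H/R270H held Vim at 306 and 284 rpkm, and Acta2 at no more than 1.59 rpkm. In flox/flox replicate 2, 6 of the 11 were above the floor, led by Vim at 19.8 rpkm and Acta2 at 11.5 rpkm. The summed level of the 8 epithelial markers was 2697 to 2734 rpkm in +/+, 4022 to 4270 rpkm in flox/flox and 2228 to 2372 rpkm in R270H/R270H. That of 5 endothelial markers was 21.6 to 23.0 rpkm in +/+, 5 and 27.7 rpkm in flox/flox and 5.13 to 5.20 rpkm in R270H/R270H, and that of 7 immune markers 29.3 to 31.9, 19.4 to 31.1 and 10.03 to 10.9 rpkm, with Pecam1 and Ptprc at the floor in all 6 libraries. Each marker at the floor adds 1 rpkm to such a sum. The endothelial sum of 5 rpkm in flox/flox replicate 1 is thus floor alone, and those of R270H/R270H are nearly so. Of the 7 immune markers, 5 were at the floor in every library. The part of all these markers in the results below was not tested.

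Summed over the 10 genes, the level was 415 and 396 rpkm in the +/+ libraries, 176 and 216 rpkm in flox/flox and 884 and 914 rpkm in R270H/R270H. The 3 groups did not overlap in this sum, and R270H/R270H was the highest and flox/flox the lowest. Axin2, the scaffold protein of the destruction complex, was the largest contributor in +/+ (32.7 and 32.9% of the sum) and in flox/flox (46.0 and 41.2%). In R270H/R270H the largest contributor was Apcdd1, with 27.7 and 26.1% of the sum against 5.57 and 4.70% in +/+. Apcdd1 made up 18.01% of the sum in flox/flox replicate 1 and 1.78% in replicate 2. In bulk RNA, fewer cells expressing a gene and less RNA of it per cell cannot be told apart.

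**Figure D1:**
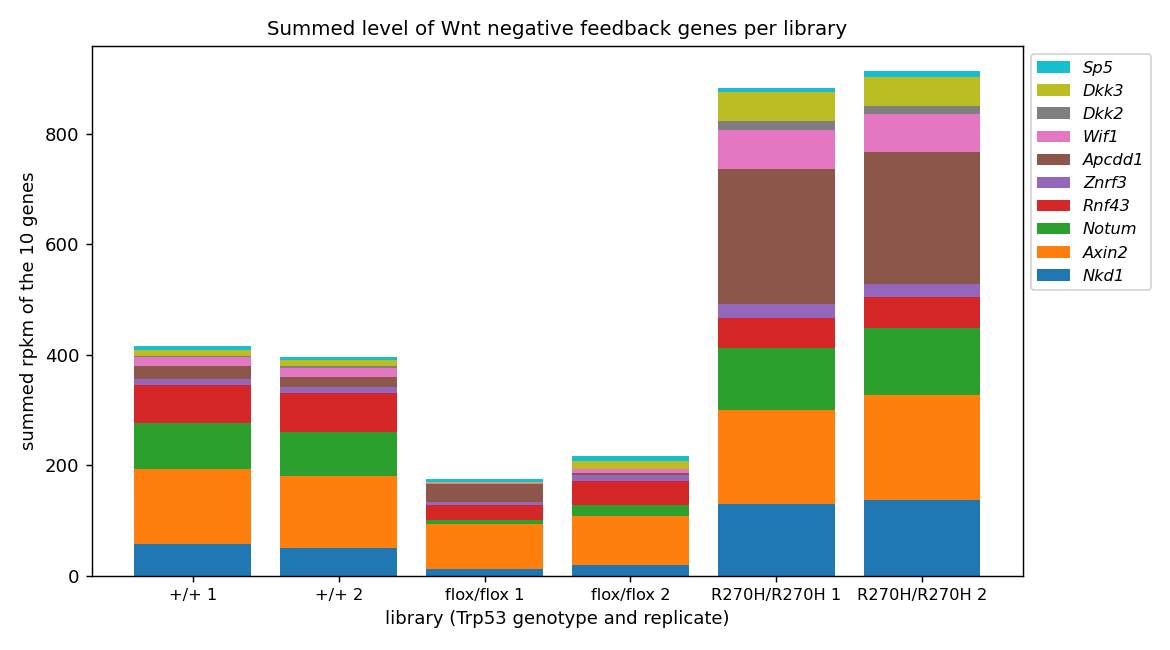
Stacked bars give the summed rpkm of the 10 Wnt negative feedback genes in each of the 6 libraries, with 1 color per gene. The bars reach 884 and 914 rpkm in R270H/R270H, 415 and 396 rpkm in +/+ and 176 and 216 rpkm in flox/flox, and the Apcdd1 segment is widest in R270H/R270H.

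Whether the missense protein and the loss of p53 went with different levels of these genes was examined by limma on log2(rpkm+1). The test was two-sided, with Benjamini-Hochberg adjustment over all 10042 genes. A gene is called where its adjusted p is under 0.05, and each fold change below is on the log2(rpkm+1) scale, with its s.e., unless it is given as a ratio of mean rpkm. With 2 libraries against 2, an exact two-sided permutation test of a single gene cannot go below 0.333, so single genes rest on the spread that limma shares across genes and genotypes.

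Against +/+, 3 of the 10 genes rose in R270H/R270H (Nkd1, Znrf3 and Dkk2), where 5.86% of all tested genes did, and 0 fell, where 6.36% did. At an unadjusted p under 0.05 the counts were 8 higher and 0 lower. The share of all genes at this unadjusted cut was not computed. The shares given here and below are for calls at adjusted p, so they are no baseline for any count at unadjusted p. The median fold change of the 10 was 1.17, beside 0.03 for all genes, and 9 of the 10 were positive. Against flox/flox, 8 of the 10 rose, where 13.6% of all genes did, and 0 fell (11% of all genes), with 9 higher and 0 lower at an unadjusted p under 0.05. The median of the 10 was 2.997, or 3.05 with Dkk2 at its bound. In flox/flox against +/+, 4 fell (Nkd1, Axin2, Notum and Dkk2), where 6.9% of all genes did, and 0 rose (4.38% of all genes). At an unadjusted p under 0.05, 6 were lower and 0 higher. The median of the 10 was -0.91, or -1.06 with Dkk2 at its bound. Nkd1, Znrf3 and Dkk2 rose against both other genotypes, as 4.17% of all genes did, and Nkd1 and Dkk2 were called in all 3 comparisons, as were 1.31% of all genes. On means of rpkm alone, R270H/R270H was at least 2-fold above +/+ for 6 genes (Nkd1, Znrf3, Apcdd1, Wif1, Dkk2 and Dkk3), where 4.38% of all genes were, and at least 2-fold above flox/flox for 8, where 7.88% were. These 3 comparisons share libraries, so their counts are not independent. The 10 genes were chosen with earlier results of these data known, so the shares of all genes beside their counts are a description and no test of enrichment. Dkk2, counted in each of them, passed the filter of 4 rpkm only through R270H/R270H, the group where it was highest. Its calls cannot be separated from that filter.

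The calls depended on the flox/flox libraries, which set much of the shared spread. When only the 4 libraries of +/+ and R270H/R270H were fitted, 9 of the 10 rose in R270H/R270H and Rnf43 fell, but 31.2% of all genes rose and 25.7% fell in the same fit. With only flox/flox and R270H/R270H, 3 rose (Nkd1, Axin2 and Dkk2), where 2.56% of all genes did, and 0 fell (1.2% of all genes), with 8 higher and 0 lower at an unadjusted p under 0.05. With only flox/flox and +/+, 0 of the 10 were called (6 lower and 0 higher at an unadjusted p under 0.05), where 0.378% of all genes fell and 0.0896% rose. Leaving out 1 library of +/+ or R270H/R270H left 0 or 1 of the 10 called higher against +/+ (3 to 6 at an unadjusted p under 0.05), and leaving out either flox/flox library gave 9, where 31.2% of all genes rose. Over the 17 other settings, the calls against +/+ were lost under 5 (Nkd1), 11 (Znrf3) and 3 (Dkk2). Against flox/flox those of Nkd1 and Dkk2 were lost under 0, that of Axin2 under 2, those of Apcdd1, Notum, Znrf3 and Wif1 under 6 each and that of Dkk3 under 9. For Dkk2, at the floor in both flox/flox libraries, the kept call cannot be separated from the floor and the filter, and is no sign of stability. In flox/flox against +/+ those of Nkd1 and Notum were lost under 6 and those of Axin2 and Dkk2 under 9. By rank alone, both R270H/R270H libraries were above the other 4 for 9 of the 10 genes, all but Rnf43, against 26.5% of all tested genes. Sp5 is among the 9 by a margin of only 1.008-fold (8.55 rpkm in R270H/R270H replicate 1, 8.48 rpkm in flox/flox replicate 2), close to a tie. For 6 genes (Nkd1, Axin2, Notum, Znrf3, Dkk2 and Wif1) every R270H/R270H library was above every +/+ library and every +/+ library above every flox/flox library, a pattern of 12.2% of all genes. Dkk2 is in both rank counts, and its top rank in R270H/R270H cannot be separated from the filter, which it passed only through that group.

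**Figure D2:**
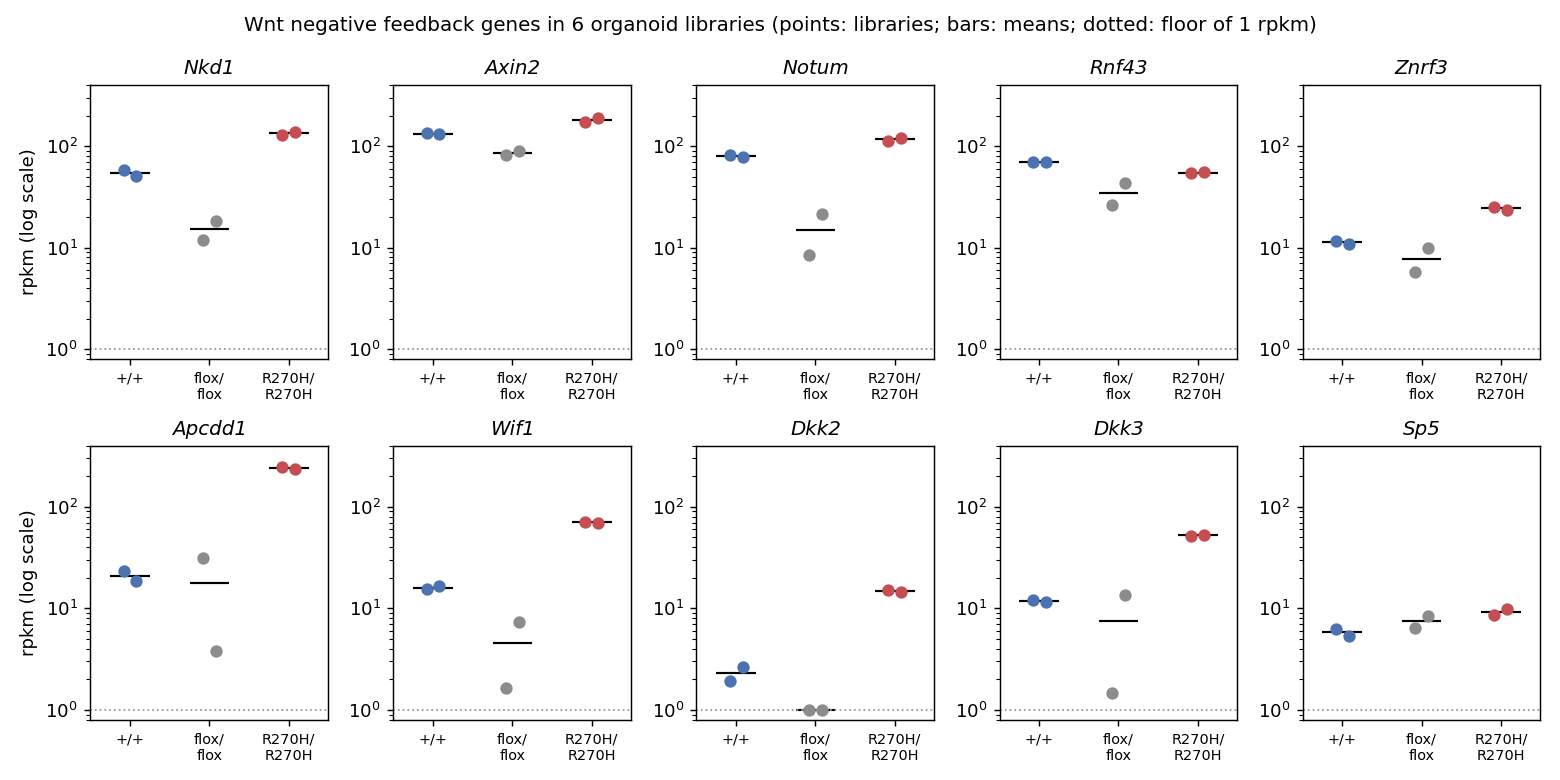
Each panel plots 1 gene, with rpkm on a log axis, 1 point per library, a bar at the mean of each genotype and a dotted line at the floor of 1 rpkm. In every panel but that of Rnf43 the 2 R270H/R270H points are the highest, for Sp5 by only 1.008-fold. The flox/flox points lie at least 2-fold apart for Apcdd1, Notum, Dkk3 and Wif1.

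Nkd1 (Naked cuticle 1; chromosome 8, 88521354 to 88594884 on GRCm38), a cytoplasmic protein that binds Dishevelled and dampens the signal below the receptor, was at 57.5 and 50.7 rpkm in +/+, 11.8 and 18.3 rpkm in flox/flox and 129 and 137 rpkm in R270H/R270H. The 3 genotypes did not overlap. The R270H/R270H mean was 2.46-fold the +/+ mean, and the fold change of 1.29±0.21 was called (adjusted p=0.0243). Against flox/flox the ratio was 8.82 and the fold change 3.09±0.21 (adjusted p=0.00247). From +/+ to flox/flox, Nkd1 fell by 1.80 (s.e. 0.21, adjusted p=0.0146).

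Axin2 (chromosome 11, 108920349 to 108950783), which as part of the destruction complex limits β-catenin directly, was at 136 and 130 rpkm in +/+, 80.9 and 88.9 rpkm in flox/flox and 171 and 191 rpkm in R270H/R270H. The genotypes again did not overlap, but the range over the 6 libraries was narrower than that of Nkd1. The R270H/R270H mean was 1.36-fold the +/+ mean, a fold change of 0.44±0.11 that was not called (adjusted p=0.0641). Axin2 rose by 1.08±0.11 against flox/flox (adjusted p=0.00634) and fell by 0.64 from +/+ to flox/flox (adjusted p=0.0315), the latter call being lost under 9 of 17 other settings (adjusted p up to 0.267).

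Rnf43 and Znrf3 encode related membrane-bound ubiquitin ligases that remove Frizzled receptors from the cell surface and are themselves held in check by R-spondins. Rnf43 (chromosome 11, 87662722 to 87735539) was at 69.5 and 70.3 rpkm in +/+, 26.5 and 43.1 rpkm in flox/flox and 54.0 and 55.7 rpkm in R270H/R270H. It was the only one of the 10 genes with +/+ as the highest group, and R270H/R270H lay between the other groups without overlap. The fold change was -0.34±0.23 against +/+ (adjusted p=0.359) and 0.68±0.23 against flox/flox (adjusted p=0.0829), neither of them called. In flox/flox against +/+ it was -1.03±0.23, which narrowly missed a call (adjusted p=0.05005, range 0.000260 to 0.313 over 17 other settings).

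Znrf3 (chromosome 11, 5276324 to 5444847) was at 11.6 and 10.9 rpkm in +/+, 5.73 and 9.82 rpkm in flox/flox and 25.1 and 23.6 rpkm in R270H/R270H. Its R270H/R270H libraries were above all others, and the flox/flox libraries below +/+. The mean was 2.16-fold that of +/+, and Znrf3 rose by 1.05±0.23 (adjusted p=0.0490), a call that was lost under 11 of 17 other settings (adjusted p up to 0.311). Against flox/flox it rose by 1.57±0.23 (adjusted p=0.0144), and flox/flox against +/+ gave -0.52±0.23, which was not called (adjusted p=0.180). Rnf43 and Znrf3 thus differed in the order of +/+ and R270H/R270H, a difference between the genes that was not tested.

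Apcdd1 (chromosome 18, 62922231 to 62961179), a membrane glycoprotein that binds Wnt and LRP proteins and blocks signaling at the cell surface, was at 23.2 and 18.6 rpkm in +/+, 31.7 and 3.84 rpkm in flox/flox and 244 and 238 rpkm in R270H/R270H. The R270H/R270H libraries were far above the other 4, while the flox/flox libraries lay on either side of +/+. The mean was 11.6-fold that of +/+, the largest ratio among the 10 genes in this comparison, and the pair of libraries that lay closest differed 10.3-fold. The fold change of 3.48±0.86 (95% interval 1.29 to 5.66) was not called (adjusted p=0.0600), with the flox/flox libraries, which share the estimate of the spread, 8.24-fold apart. In the fit of the 4 libraries without flox/flox its s.e. was 0.11 (adjusted p=0.000145, range 1.27e-05 to 0.332 over 17 other settings). Against flox/flox, Apcdd1 rose by 4.27±0.86 (adjusted p=0.0269), which became 5.65 without flox/flox replicate 1 and 2.89 without replicate 2. In flox/flox against +/+ the value was -0.79±0.86 (adjusted p=0.533). The 2 other tested genes that lay at least in part within 500 kb of it had log2 differences of -0.11 and 0.45 between R270H/R270H and +/+ (median 0.17).

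Notum, Wif1, Dkk2 and Dkk3 encode secreted proteins. Notum (chromosome 11, 120653788 to 120661175), a secreted enzyme that inactivates Wnt ligands by removing their lipid, was at 82.3 and 78.9 rpkm in +/+, 8.52 and 21.5 rpkm in flox/flox and 113 and 121 rpkm in R270H/R270H. Its lowest values were in flox/flox, and the distance from +/+ to R270H/R270H was small beside that. The +/+ mean was 5.38-fold the flox/flox mean, and Notum fell by 2.48 in flox/flox (s.e. 0.39, adjusted p=0.0273). It rose by 3.01±0.39 in R270H/R270H against flox/flox (adjusted p=0.0107). Without flox/flox replicate 1 these values were -1.86 and 2.39, and without replicate 2 they were -3.10 and 3.63. Against +/+ the fold change was 0.53±0.39 (adjusted p=0.410), a ratio of 1.45.

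Wif1 (Wnt inhibitory factor 1; chromosome 10, 121033960 to 121100650), which binds Wnt ligands outside the cell, was at 15.5 and 16.5 rpkm in +/+, 1.66 and 7.41 rpkm in flox/flox and 71.4 and 69.9 rpkm in R270H/R270H. The groups did not overlap. The R270H/R270H mean was 4.43-fold that of +/+ and 15.6-fold that of flox/flox. The first fold change, 2.08±0.52, was not called with all 6 libraries (adjusted p=0.0618), and the second, 3.92±0.52, was (adjusted p=0.0111). The second became 3.09 without flox/flox replicate 1 and 4.75 without replicate 2, and its call was lost under 6 of 17 other settings (adjusted p up to 0.133). The value in flox/flox against +/+ was -1.84±0.52 (adjusted p=0.0803).

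Dkk2 (chromosome 3, 132085292 to 132180304), a Dickkopf protein that binds LRP receptors, was at 1.94 and 2.66 rpkm in +/+, at the floor of 1 rpkm in both flox/flox libraries and at 15.2 and 14.4 rpkm in R270H/R270H. It was the lowest of the 10 genes in +/+ and in the flox/flox mean, and none of its groups overlapped. Dkk2 rose by 2.27±0.15 against +/+ (adjusted p=0.00367), a ratio of 6.44. It was at least 14.8-fold higher in R270H/R270H than in flox/flox, and the difference was called (adjusted p=0.00184). In flox/flox it was at least 2.30-fold lower than in +/+ (adjusted p=0.0478), a call lost under 9 of 17 other settings (adjusted p up to 0.331). The s.d. of 0 in flox/flox comes from the floor, so the s.e. and adjusted p of Dkk2 may be too small in all 3 comparisons.

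Dkk3 (chromosome 7, 112116017 to 112159057), a divergent Dickkopf protein, was at 12.1 and 11.5 rpkm in +/+, 1.47 and 13.5 rpkm in flox/flox and 52.2 and 52.9 rpkm in R270H/R270H. R270H/R270H stood above the other 4 libraries, 4.45-fold the mean of +/+, and the flox/flox libraries differed 9.20-fold. The fold change against +/+ was 2.06±0.80 and was not called (adjusted p=0.149). In the fit of the 4 libraries without flox/flox the s.e. was 0.05 (adjusted p=0.000116, range 5.82e-05 to 0.473 over 17 other settings). Against flox/flox, Dkk3 rose by 3.16±0.80 (adjusted p=0.0431), a call lost under 9 of 17 other settings (adjusted p up to 0.255), and the value was 1.89 without flox/flox replicate 1 and 4.44 without replicate 2. The value in flox/flox against +/+ was -1.10±0.80 (adjusted p=0.356).

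Flox/flox replicate 2 was the higher of its pair for 8 of the 10 genes, all but Dkk2, at the floor in both, and Apcdd1, which was 8.24-fold lower there. It was also the library with Acta2, Col1a1, Pdgfra, Pdgfrb and Dcn above the floor. Acta2 reached 11.5 rpkm there, Col1a1 2.44 rpkm and the other 3 no more than 1.36 rpkm. The endothelial marker Tek was at 21.4 rpkm in it. Their part in the values of that library was not tested. In R270H/R270H, where Dkk2, Dkk3 and Wif1 were highest, Col1a1, Col1a2, Col3a1, Pdgfra, Pdgfrb, Dcn, Lum, Foxl1 and Thy1 were all at the floor, Vim was at 306 and 284 rpkm and the summed level of the 11 markers was 317 and 295 rpkm, against 42.4 to 81.6 rpkm in the other 4 libraries. Vim rose by 2.93±0.58 against flox/flox (adjusted p=0.0261), and against +/+ its fold change was 2.31±0.58 (adjusted p=0.0622).

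Sp5 (chromosome 2, 70474923 to 70477729), a zinc finger transcription factor induced by Wnt signaling, was at 6.21 and 5.38 rpkm in +/+, 6.44 and 8.48 rpkm in flox/flox and 8.55 and 9.84 rpkm in R270H/R270H. It varied least of the 10 genes, 1.83-fold from the lowest to the highest library, and flox/flox lay above +/+. The R270H/R270H mean was 1.59-fold that of +/+, with a fold change of 0.59±0.17 (adjusted p=0.0830). The value was 0.28±0.17 against flox/flox (adjusted p=0.256) and 0.31±0.17 in flox/flox against +/+ (adjusted p=0.247), so that Sp5 was called in none of the 3 comparisons.

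**Figure D3:**
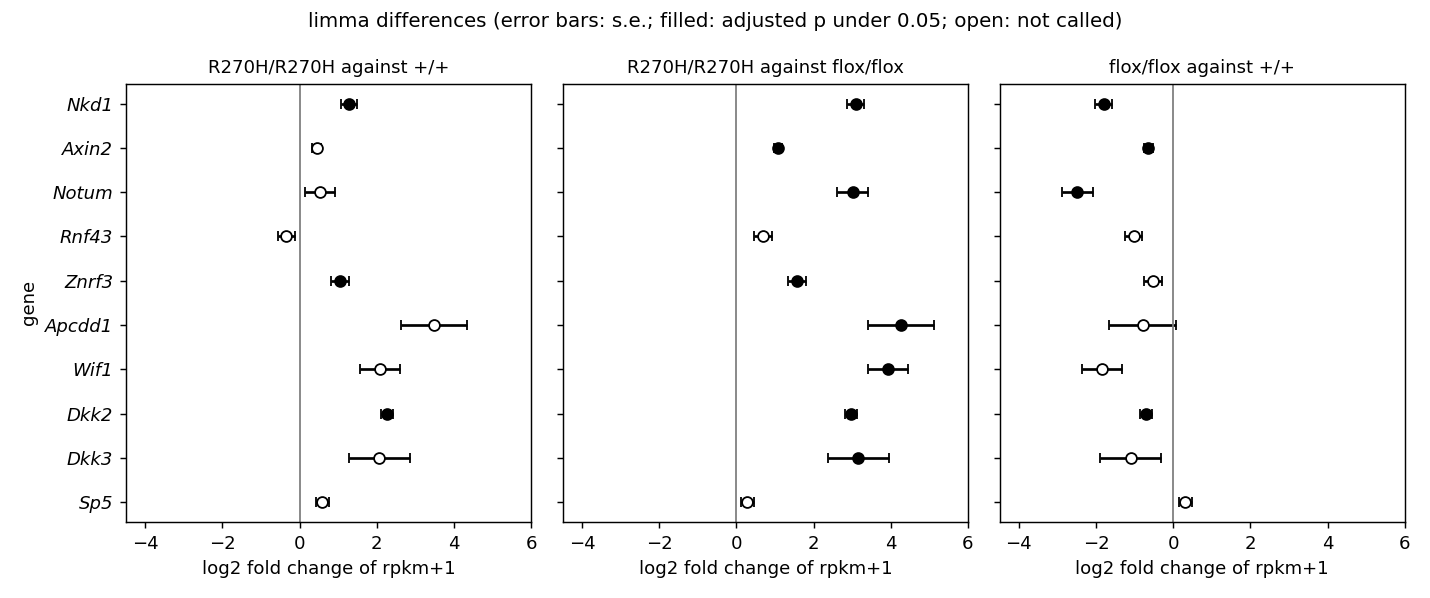
For each gene the point is the limma fold change of log2(rpkm+1) in 1 of the 3 comparisons, the error bar is the s.e., and filled points have an adjusted p under 0.05. Filled points number 3 for R270H/R270H against +/+, 8 for R270H/R270H against flox/flox and 4 for flox/flox against +/+, and the widest bars belong to Apcdd1 and Dkk3.

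Promoter sequence is shown for Sp5, which was called in no comparison, and for Axin2 and Dkk2, which rose in R270H/R270H against flox/flox, because TCF/LEF factors bind short CTTTGA-like motifs. RefSeq windows on GRCm38.p6 were at hand for 6 of the 10 genes (Sp5, Dkk2, Nkd1, Wif1, Axin2 and Rnf43, the last with 2 windows). The letters CTTTGA and the longer CTTTGAT, which contains them, were searched on both strands (TCAAAG and ATCAAAG on the reverse) in the 250 bases before each RefSeq start. The windows of Sp5, Axin2 and Dkk2 end 1 base before the gene starts given above. Those of Nkd1 and Rnf43 begin at other RefSeq starts and lie inside the gene spans given above, and that of Wif1 reaches into its span. CTTTGA was found in 1 of the 7 windows, that of Sp5, with 2 matches 99 and 199 bases before the start, the nearer also matching CTTTGAT. Over all 32851 windows 13.8% held CTTTGA and 3.2% held CTTTGAT. The windows lie at chr2:70474673-70474922 (Sp5), chr11:108920099-108920348 (Axin2) and chr3:132085042-132085291 (Dkk2), all on the plus strand, and capitals mark CTTTGA:
Sp5: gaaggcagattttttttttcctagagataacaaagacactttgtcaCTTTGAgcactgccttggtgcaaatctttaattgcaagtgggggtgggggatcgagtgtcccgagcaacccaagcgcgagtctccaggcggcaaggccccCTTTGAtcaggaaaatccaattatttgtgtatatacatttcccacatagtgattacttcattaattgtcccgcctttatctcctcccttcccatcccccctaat
Axin2: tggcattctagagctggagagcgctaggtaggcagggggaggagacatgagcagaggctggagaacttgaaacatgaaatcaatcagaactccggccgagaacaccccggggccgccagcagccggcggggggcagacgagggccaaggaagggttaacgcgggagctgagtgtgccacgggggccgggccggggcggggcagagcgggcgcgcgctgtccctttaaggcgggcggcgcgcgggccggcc
Dkk2: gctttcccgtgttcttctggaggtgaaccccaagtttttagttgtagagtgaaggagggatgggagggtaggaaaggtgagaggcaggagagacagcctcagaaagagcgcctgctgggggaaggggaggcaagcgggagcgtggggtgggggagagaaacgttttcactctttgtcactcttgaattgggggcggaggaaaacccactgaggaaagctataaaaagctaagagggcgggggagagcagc
The absence of a match says only that these letters were not in the window.

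The order of levels among the 10 genes also differed between genotypes, read on rpkm, which is per length. In +/+ it ran from Axin2 through Notum, Rnf43, Nkd1, Apcdd1, Wif1, Dkk3, Znrf3 and Sp5 to Dkk2, and the neighbours Dkk3 (mean±s.d. 11.8±0.39 rpkm) and Znrf3 (11.3±0.47 rpkm) did not differ beyond their spread. In R270H/R270H it ran from Apcdd1 (241±4.29 rpkm) through Axin2 (181±14.1 rpkm), Nkd1, Notum, Wif1, Rnf43, Dkk3, Znrf3 and Dkk2 to Sp5 (9.19±0.91 rpkm). In flox/flox, Axin2 and Rnf43 led, and Apcdd1, Nkd1 and Notum followed with means of 17.7±19.7, 15.1±4.59 and 15.0±9.15 rpkm, which did not differ beyond their spread.

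Of the 10 genes, 4 (Axin2, Notum, Rnf43 and Znrf3) lie on chromosome 11, as Trp53 does. On the 7 chromosomes that hold the 10 genes, the median of all tested genes lay within about 0.10 on the log2 scale of the genome-wide median in both R270H/R270H and both flox/flox libraries. Chromosome 13 in R270H/R270H (-0.31 and -0.42) and chromosome 5 in flox/flox replicate 1 (0.33) stood farther away, and none of the 10 genes lies on them.

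Other Wnt pathway genes were counted from lists. Of all tested genes, 5.86% rose and 6.36% fell in R270H/R270H against +/+, and 13.6% rose and 11% fell against flox/flox. In flox/flox against +/+, 4.38% rose and 6.9% fell. The counts of calls in the lists below stand beside these shares and were not tested against them. Of 30 other Wnt inhibitors, 12 passed the filter, and in R270H/R270H against +/+ 1 rose and 2 fell. Tle2, a Groucho co-repressor, was at the floor in all +/+ and flox/flox libraries and at 3.29 and 4.05 rpkm in R270H/R270H. Shisa2, which retains receptors inside the cell, fell by 1.16 (adjusted p=0.00989), and Igfbp4, an IGF-binding protein that also blocks Frizzled and LRP receptors, fell by 0.92 (adjusted p=0.0237). Against flox/flox, 2 rose and 0 fell (4 higher and 2 lower at an unadjusted p under 0.05). They were Tle2 and Dact1, a Dishevelled-binding protein, which rose by 1.26±0.16 (adjusted p=0.00974). Dact1 was at the floor in both flox/flox libraries, so this rise is a lower bound and its s.e. may be too small. In +/+ it was at 2.97 and 3.43 rpkm, beside 4.21 and 3.42 rpkm in R270H/R270H. Tle2 and Dact1 passed the filter of 4 rpkm only through 1 R270H/R270H library, Tle2 at 4.05 rpkm in replicate 2 and Dact1 at 4.21 in replicate 1. Shisa2 passed only through +/+, where it was highest. The calls of these genes cannot be separated from that filter. Dkk1, Sfrp1, Sfrp2, Sfrp4, Frzb and Nkd2, singled out after their values were seen, were at the floor in all 6 libraries. The median fold change of the 12 was 0.16 against +/+ and 0.23 against flox/flox.

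Of 15 tested genes of the destruction complex and β-catenin, 1 rose against +/+, 3 rose against flox/flox and 0 fell in either comparison (1 lower against +/+ and 0 against flox/flox at an unadjusted p under 0.05). Ctnnb1, which encodes β-catenin, was at 355 and 355 rpkm in +/+, 291 and 315 rpkm in flox/flox and 636 and 593 rpkm in R270H/R270H. R270H/R270H stood above the other 4 libraries, and Ctnnb1 rose by 0.79±0.11 against +/+ (adjusted p=0.0174) and by 1.02±0.11 against flox/flox (adjusted p=0.00714). Gsk3b, a kinase of the complex, and Tnks2, a tankyrase that marks Axin for degradation, rose against flox/flox by 1.04±0.22 and 0.75±0.18. Of 6 tested co-receptors and R-spondin receptors, Ror2, a receptor of noncanonical Wnt signaling, fell by 0.71 against +/+ and by 1.01 against flox/flox, and 0 rose (1 against +/+ and 2 against flox/flox at an unadjusted p under 0.05). The R-spondins of that list did not pass the filter and were not tested.

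Of 22 tested other targets of β-catenin, 4 rose and 4 fell against +/+, with a median of 0.13, and 5 rose and 5 fell against flox/flox, with a median of 0.11. Lef1, Tcf7, Tbx3 and Cdc25a rose against +/+, and Mmp7, Myc, Plaur and Ccnd1 fell. Lef1, Tbx3, Tnfrsf19, Tcf7 and Slc12a2 rose against flox/flox, and Ascl2, Plaur, Mmp7, Jun and Myc fell, those without a value below being named after their values were seen. Lef1, a partner of β-catenin and itself a Wnt target, was at 1.52 and 1.30 rpkm in +/+, at the floor in flox/flox and at 5.93 and 5.71 rpkm in R270H/R270H, and rose by 1.50±0.14 against +/+ (adjusted p=0.00603). Lef1 passed the filter only through R270H/R270H, so its calls cannot be separated from that filter. Mmp7, a matrix metalloproteinase of intestinal adenomas, was at 624 and 485 rpkm in +/+, 351 and 397 rpkm in flox/flox and 138 and 143 rpkm in R270H/R270H. It fell by 1.96 against +/+ (adjusted p=0.00441). Myc, the growth-promoting transcription factor, fell by 1.18 (adjusted p=0.00548), from 97.3 and 104 rpkm in +/+ to 41.4 and 46.5 rpkm in R270H/R270H. Against flox/flox, Ascl2, a transcription factor of crypt stem cells, fell by 1.72 (adjusted p=0.00984). Plaur, the urokinase receptor, fell by 1.44 (adjusted p=0.00514). In flox/flox against +/+, named in the same way, Tnfrsf19 and Tbx3 fell among the other targets and 0 rose (5 higher at an unadjusted p under 0.05), and among the other inhibitors Dact1 and Shisa2 fell and Tle4 rose. The negative feedback genes and the other targets were not tested against each other.

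**Figure D4:**
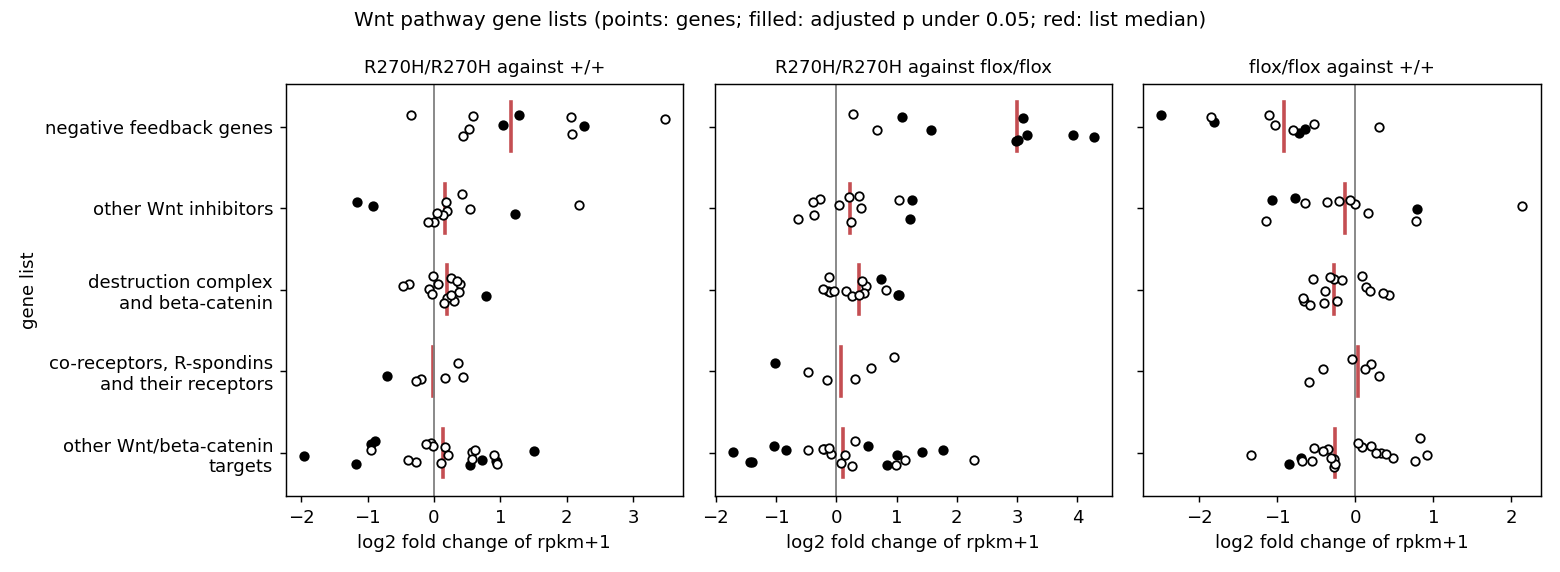
Points are genes in 5 Wnt pathway lists, placed by their limma fold change of log2(rpkm+1) in each of the 3 comparisons, filled where the adjusted p was under 0.05, with the list median in red. The medians of the negative feedback genes, 1.17 against +/+ and 2.997 against flox/flox, lie to the right of those of the other 4 lists in both comparisons of R270H/R270H, and Dkk2 is drawn at its fitted value. All lists were chosen with earlier results of these data known, and the medians were not tested against each other.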

How the data were processed

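Stranded poly(A) libraries were sequenced by Illumina HiSeq. The deposited rpkm values came from StrandNGS after the authors' mapping to mm10, and the software's version and gene annotation are not given in the sources used here. That values under 1 rpkm were raised to 1 is inferred from the table, in which 23760 of 36172 genes stood at 1 in all 6 libraries. Depth, estimated from the steps of 1 read in rpkm of 8 to 23 short RNA genes, was 44.2 to 48.4 M reads, where that of +/+ replicate 1 (47.0) had a nearly equal rival at 41.0.

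The 10 genes and all lists were chosen with earlier results of these data known. Genes that reached 4 rpkm in any library were tested by limma 3.58.1 (R 4.3.3; lmFit, eBayes with trend) on log2(rpkm+1), genotype being the only term, all 6 libraries sharing the spread, with Benjamini-Hochberg adjustment at 0.05. The code was tested on simulated data. Per other list, the rule for named genes took at most 3 called genes per R270H/R270H comparison, by fold change. Further genes, among them the remaining called β-catenin targets, were named after their values were seen. Positions are from GENCODE M21 (GRCm38), matched by gene identifier. Python 3.11.15 with pandas 2.3.3 was used for the tables. The alternatives were pseudocounts of 0.1 and 0, filters of 1 rpkm or of 4 rpkm in both libraries of a genotype, upper-quartile or median-of-ratios scaling, a replicate block, no trend, weights by genotype, only the 2 genotypes compared, a 2-fold rule on means, and each library left out. A replicate block with the R270H/R270H numbers exchanged, chosen after seeing the data, was also among the 17 settings counted for single genes. That block thus enters the 510 values below, and the 2-fold rule does not.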

Additional observations from a re-analysis of the deposited data

How the results depend on the processing

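Over 510 alternative values of single genes, 382 kept direction and side of the threshold, 84 lost the call, 42 gained it and 2 reversed. The reversals were both in flox/flox against +/+: Apcdd1 became 0.59 (adjusted p=0.0142, range 0.00121 to 0.784 over its alternatives) without flox/flox replicate 2, and -2.17 without replicate 1. Dkk3 became 0.18 (adjusted p=0.0877, range 0.000186 to 0.617) without flox/flox replicate 1 and -2.38 without replicate 2. In R270H/R270H against +/+ the count of 3 higher became 1 with a filter of 1 rpkm (0.73% of all genes higher), 9 with weights by genotype (31.9% higher, 27.8% lower) or only the 2 genotypes compared (31.2% and 25.7%), and 6 under the 2-fold rule, where 4.38% of all genes passed. The count of 0 lower became 1 with weights or only the 2 genotypes. With each library left out, the higher count ranged from 0 to 9 and the lower count from 0 to 1. It was 0 without +/+ replicate 1, +/+ replicate 2 or R270H/R270H replicate 1 (limma, 6, 5 and 5 genes at an unadjusted p under 0.05), where 0 of all 10042 genes were called in either direction, 1 without R270H/R270H replicate 2 (0.737% of all genes higher), and 9 higher and 1 lower without either flox/flox library (31.2% of all genes higher, 25.8 or 25.9% lower). In R270H/R270H against flox/flox the count of 8 higher became 3 with a filter of 1 rpkm (1.55% of all genes) or only the 2 genotypes (2.56%), and ranged from 2 to 10 with libraries left out: 3 without either +/+ library (2.55% of all genes), 2 without R270H/R270H replicate 1 or 2 (1.35 and 1.69%), and 9 and 10 without flox/flox replicate 1 and 2 (29.1 and 38.5%). In flox/flox against +/+ the count of 4 lower became 0 with a filter of 1 rpkm or only the 2 genotypes (6 in each at an unadjusted p under 0.05; 0.152 and 0.378% of all genes lower) and 2 with weights (1.15%). With libraries left out it ranged from 0 to 8: 7 without flox/flox replicate 1 (21.3% of all genes lower), 8 without replicate 2 (36.9%) and 0 without any other library (5 or 6 at an unadjusted p under 0.05; 0.0797 to 0.289% of all genes). The higher count there ranged from 0 to 1 (1 without either flox/flox library, where 19.1 and 31.6% of all genes were higher). A lone library left in a genotype was assumed to vary like the others. That both R270H/R270H libraries were highest for 9 genes did not rest on a test.

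The replicate numbers in the titles name different mice, and the deviations of same-numbered libraries correlated at 0.117, -0.291 and -0.196. Whether libraries of different groups shared a batch was not tested. With the replicate block the counts were 2 higher against +/+ (2.54% of all genes), 7 higher against flox/flox (6.65%) and 2 lower in flox/flox against +/+ (2.08%). With the R270H/R270H numbers exchanged in the block, a setting chosen after seeing the data, they were 2, 8 and 2 (4.06, 11.7 and 4.93% of all genes).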

Other observations

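Among secreted Wnt regulators outside the 10 genes, singled out after their values were seen, Sfrp5, a secreted Frizzled-related protein, stood at the 1 rpkm floor in +/+, at 18.1 and 3.09 rpkm in flox/flox and at 6.10 and 10.7 rpkm in R270H/R270H. Rspo3, an R-spondin that opposes Rnf43 and Znrf3, was at 3.29 and 2.79 rpkm in +/+ and at the floor in the other 4 libraries. Rspo4 was at 1.84 and 1.75 rpkm in R270H/R270H and at the floor elsewhere.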
